A study of Caenorhabditis elegans with 9 samples.

Results

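Nematodes signal between cells with short peptides, and the genes that encode them were measured in *C. elegans* larvae after RNAi against *cco-1* or *his-3*. The genes were taken by name: every gene called *flp*, *nlp* or *ins* with a number, and *daf-28*, a founding member of the insulin-like family. This gave 141 of the 46739 genes in the table, in 4 classes: 31 *flp* genes for FMRFamide-like peptides, 60 *nlp* genes for other neuropeptide-like proteins, the 11 genes *nlp-24* to *nlp-34*, kept apart because several of them are expressed in the epidermis, and 39 insulin-like genes. Synchronized wild-type N2 worms were fed bacteria carrying *cco-1* RNAi, *his-3* RNAi or the empty vector (EV) from L1 and were harvested as L4 larvae, with 3 libraries in each group. *cco-1* encodes a subunit of complex IV of the mitochondrial respiratory chain, and the *his-3* clone is directed at histone H2A genes. No mutant or transgene was used, the RNA came from whole larvae, and the comparison asks how peptide genes respond to mitochondrial and to histone perturbation.

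Peptide precursors are cut by proprotein convertases in the secretory pathway, trimmed by carboxypeptidases, often amidated, packed into dense core vesicles and released. Most FMRFamide-like and other neuropeptides act on G protein coupled receptors, whereas the insulin-like peptides act on the receptor kinase DAF-2, through which they control dauer entry, growth and lifespan, some as agonists and others as antagonists. Several *nlp* genes of the epidermis encode antimicrobial peptides that are switched on by fungal infection and wounding.

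The libraries held 25129763 to 32017517 reads on genes. The *cco-1* gene, which the annotation lists as *cox-5B*, had 4945, 4538 and 4656 normalized counts in the *cco-1* RNAi libraries, 9261, 9633 and 9409 in the *his-3* RNAi libraries and 12749, 12691 and 12509 in EV. Its lowest group was therefore the one labelled for it. *his-3* had 22.5, 17 and 13.6 normalized counts under *cco-1* RNAi, 107, 100.3 and 120 under *his-3* RNAi and 175, 180 and 169 in EV, so it was below EV under both treatments and lowest under *cco-1* RNAi. *his-3* is one of several histone H2A genes, and reads that align to more than one place were left uncounted by the authors. Normalized counts are reads scaled by edgeR's TMM factors to the mean library.

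Of the 141 genes, 122 passed the filter of more than 5 reads in more than 3 libraries and were tested among the 16817 genes of the filtered table in 1 edgeR model, in which an adjusted p (Benjamini-Hochberg) under 0.05 is called a change. They were 30 *flp* genes, 56 of the *nlp* genes outside the epidermal set, 10 epidermal *nlp* genes and 26 insulin-like genes. The 19 that did not pass were *flp-23*, *nlp-22*, *nlp-23*, *nlp-32*, *nlp-39*, *nlp-60* and 13 *ins* genes, and none of them had more than 8 reads in any library. *nlp-22*, known for its part in larval sleep, was among these at 0 to 1.89 normalized counts. Members took 0.119% of the reads on genes under *cco-1* RNAi, 0.118 to 0.120% under *his-3* RNAi and 0.0942 to 0.0947% in EV.

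Under *cco-1* RNAi, 73 of the 122 tested members were higher than in EV and 12 were lower, where 34.9% of all genes tested were higher and 35.9% were lower. Under *his-3* RNAi, 64 members were higher and 11 were lower, against 26.9% and 27.9% of all genes. The median log2 fold change over the members was 0.42 under *cco-1* RNAi and 0.32 under *his-3* RNAi, beside 0.01 and 0.02 over all genes tested. Both comparisons use the same EV libraries. Changes of at least 2 on the log2 scale under *cco-1* RNAi were seen for 4 members above EV (*nlp-26*, *nlp-28*, *ins-5* and *ins-23*) and 6 below it (*nlp-25*, *nlp-33*, *nlp-34*, *ins-9*, *ins-12* and *ins-32*), where 4.31% and 6.61% of all genes passed the same limits. Under *his-3* RNAi, *nlp-28* alone reached that size above EV, where 3.23% of all genes did, and the lowest member stood at -1.80, where 0.714% of all genes were lower by at least 2.

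**Figure D1:**
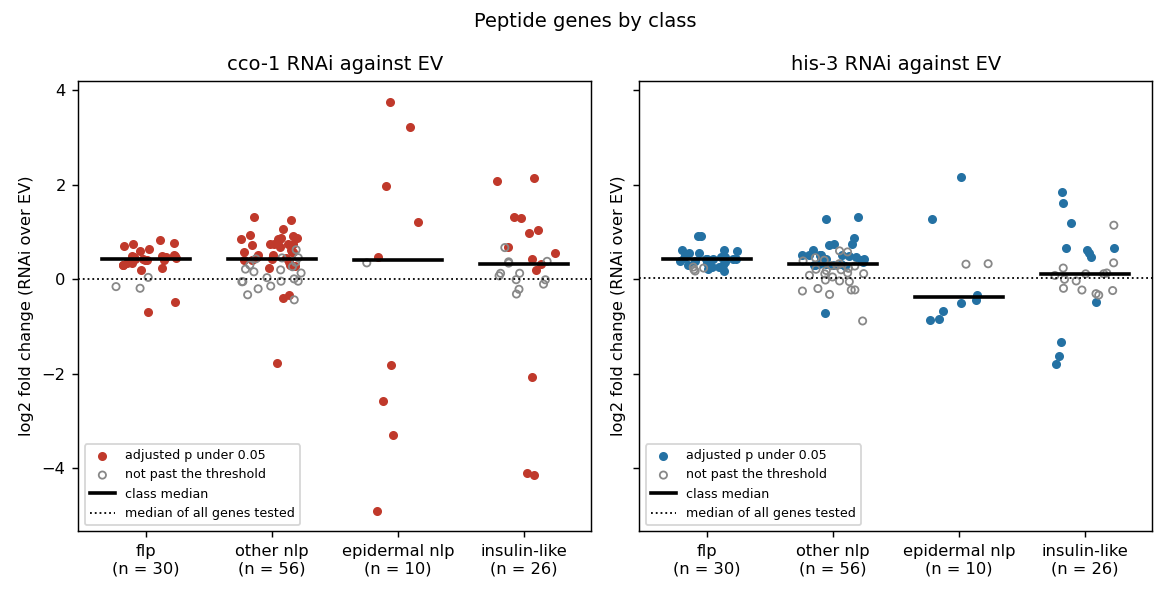
Log2 fold change over EV (y axis) of each peptide gene that was tested, by class, under *cco-1* RNAi on the left and *his-3* RNAi on the right. Filled points passed an adjusted p of 0.05, open points did not, thick bars are class medians and the dotted line is the median of all genes tested; the *flp* medians lie at 0.42 in both panels, and the epidermal *nlp* genes spread between -4.90 and 3.76 under *cco-1* RNAi.

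The *flp* genes moved up as a class under both treatments. Under *cco-1* RNAi, 25 of 30 (83.3%) were higher than in EV and 2 were lower, with a median log2 fold change of 0.42. Under *his-3* RNAi, 26 of 30 (86.7%) were higher, none was lower, and the median was 0.42. The shares of all genes tested were 34.9% higher and 35.9% lower under *cco-1* RNAi, and 26.9% and 27.9% under *his-3* RNAi. All 30 values were above 0, so no p threshold could call a *flp* gene lower. With limma-voom or DESeq2, 0 were called lower. The changes were small, with the largest at 0.82 under *cco-1* RNAi and 0.92 under *his-3* RNAi. Summed over the class, 10378 to 10662 normalized counts lay on *flp* genes under *cco-1* RNAi and 10613 to 11873 under *his-3* RNAi, against 8523 to 8798 in EV. Whole larvae were sequenced, so fewer or more cells of a type and less or more RNA per cell cannot be told apart.

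The *flp* genes that rose most under *cco-1* RNAi were *flp-27*, *flp-4*, *flp-15* and *flp-33*. *flp-27* had 249, 279 and 275 normalized counts under *cco-1* RNAi and 199.6, 263 and 231 under *his-3* RNAi, against 157, 150.2 and 148 in EV, and its log2 fold changes were 0.82 ± 0.11 (SE, adjusted p = 2.9e-06) and 0.61 ± 0.11 (adjusted p = 0.00012). Every library of either treatment was above every EV library. *flp-4*, *flp-15* and *flp-33* rose by 0.77, 0.75 and 0.70 on the log2 scale under *cco-1* RNAi and by 0.55, 0.43 and 0.43 under *his-3* RNAi. The *his-3* RNAi call of *flp-33* was lost without *his-3* RNAi replicate 3 (adjusted p = 0.0632), EV replicate 1 (adjusted p = 0.0824) or EV replicate 2 (adjusted p = 0.0637). The gene shares exon sequence on the opposite strand with *ntr-1*, a nematocin receptor gene with 43 reads in all libraries together. The stretch that both cover runs only from 12624234 to 12624241.

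Under *his-3* RNAi, *flp-34*, *flp-2*, *flp-5* and *flp-27* rose most. *flp-2*, whose peptides promote locomotor arousal, had 149, 143 and 123 normalized counts under *cco-1* RNAi and 156, 205 and 193 under *his-3* RNAi, against 101, 87.3 and 104.1 in EV. Its log2 fold change was 0.51 ± 0.13 (adjusted p = 0.00298) under *cco-1* RNAi and 0.92 ± 0.13 (adjusted p = 1.0e-05) under *his-3* RNAi, and the treatments differed by -0.41 ± 0.12 (*cco-1* RNAi over *his-3* RNAi, adjusted p = 0.00537). *flp-5* rose by 0.48 and 0.61.

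The precursors with well-known roles in behaviour moved by like amounts. *flp-1*, which acts in locomotion, had 622, 646 and 554 normalized counts under *cco-1* RNAi and 595, 635 and 667 under *his-3* RNAi, against 469, 452 and 449 in EV. Its log2 fold changes were 0.41 ± 0.07 (adjusted p = 6.3e-05) and 0.47 ± 0.07 (adjusted p = 2.5e-05), and the treated libraries all lay above EV. *flp-18* and *flp-21*, which encode ligands of the NPR-1 receptor, rose by 0.59 and 0.49 under *cco-1* RNAi and by 0.35 and 0.55 under *his-3* RNAi. The *cco-1* RNAi call of *flp-21* was lost without *cco-1* RNAi replicate 3 (log2 fold change 0.36, adjusted p = 0.0521). *flp-14* rose by 0.40 and 0.31.

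The treatments set *flp-28* and *flp-34* on opposite sides of EV. *flp-34* (WBGene00019975, chromosome V, 1027891 to 1033404, minus strand, WBcel235) encodes peptides related to neuropeptide Y. It had 62.4, 72.9 and 61.3 normalized counts under *cco-1* RNAi and 179.9, 165 and 175 under *his-3* RNAi, against 95.4, 97.2 and 82.3 in EV. No library of one group reached into another, and the log2 fold changes were -0.47 ± 0.13 (adjusted p = 0.00418) under *cco-1* RNAi and 0.92 ± 0.11 (adjusted p = 2.1e-06) under *his-3* RNAi. With *pmp-3* and *act-1*, the qRT-PCR reference genes of the study, setting the scale, the *cco-1* RNAi value was -0.31 and no longer passed (adjusted p = 0.07). The direct comparison gave -1.40 ± 0.12 (*cco-1* RNAi over *his-3* RNAi, adjusted p = 1.5e-08).

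*flp-28* (WBGene00044686, chromosome X, 10087314 to 10087966, minus strand) had 634, 588 and 596 normalized counts under *cco-1* RNAi and 1020, 1318 and 1065 under *his-3* RNAi, against 995, 960 and 967 in EV. It was the *flp* gene with the highest level per length in EV, at 62.8 ± 1.2 RPKM (normalized reads per kilobase of exon, scaled to depth; SD, n = 3), against 39.1 ± 1.6 under *cco-1* RNAi and 73.2 ± 10.4 under *his-3* RNAi. It fell by 0.68 ± 0.08 on the log2 scale under *cco-1* RNAi (adjusted p = 1.2e-06). Under *his-3* RNAi its log2 fold change was 0.22 ± 0.08 (adjusted p = 0.0223), a call that was lost when *his-3* RNAi replicate 2 (log2 fold change 0.10, adjusted p = 0.104), EV replicate 1 (adjusted p = 0.0742), EV replicate 2 (adjusted p = 0.0625) or EV replicate 3 (adjusted p = 0.0619) was left out, and with DESeq2 (adjusted p = 0.0583). The direct comparison gave -0.90 ± 0.08 (adjusted p = 3.2e-08). Next in level per length in EV came *flp-9*, which rose by 0.65 under *cco-1* RNAi and 0.39 under *his-3* RNAi, and *flp-10*, at -0.16 (adjusted p = 0.0546) under *cco-1* RNAi and 0.25 (adjusted p = 0.00449) under *his-3* RNAi.

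**Figure D2:**
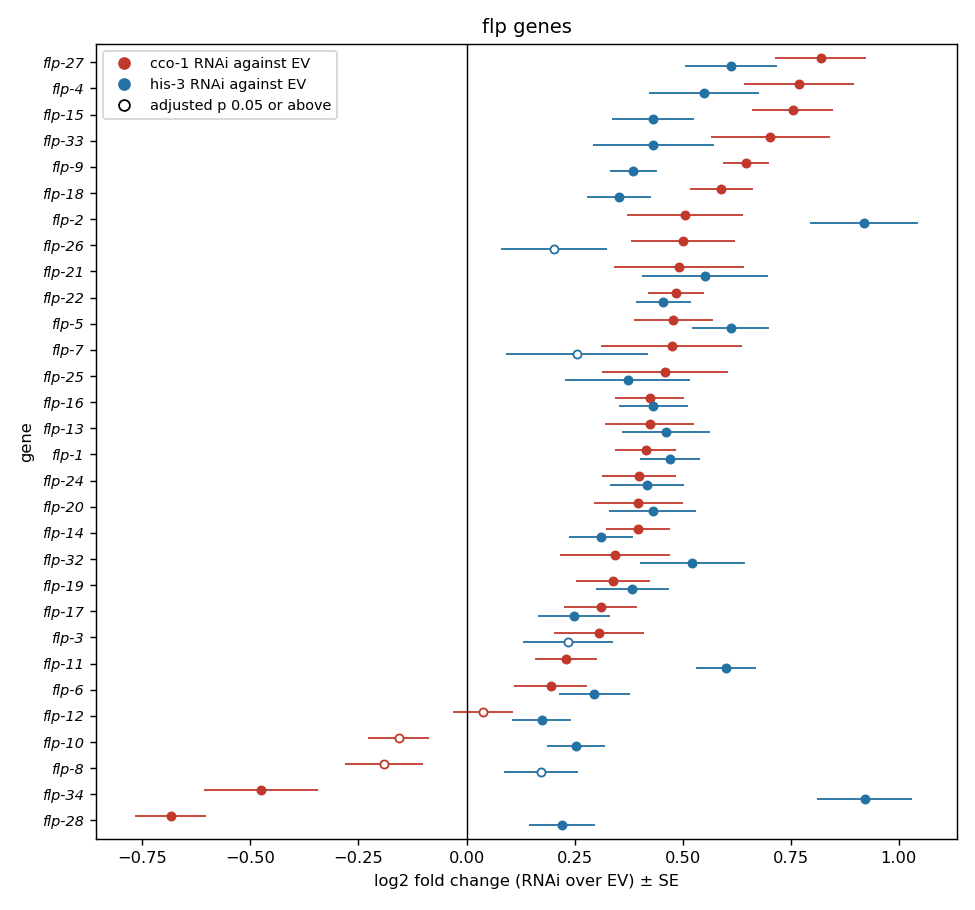
Log2 fold change over EV (x axis, points, with bars for the SE) of the 30 tested *flp* genes (y axis) under *cco-1* RNAi and *his-3* RNAi; open points did not pass an adjusted p of 0.05. The *his-3* RNAi points lie between 0.17 and 0.92, and *flp-28* and *flp-34* lie left of 0 under *cco-1* RNAi and right of it under *his-3* RNAi.

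The *nlp* genes outside the epidermal set also moved up, with a smaller share of calls. Under *cco-1* RNAi, 32 of 56 (57.1%) were higher than in EV and 3 (5.36%) were lower (median log2 fold change 0.44). Under *his-3* RNAi, 28 (50%) were higher and 1 (1.79%) was lower (median 0.32). Among all genes tested, 34.9% were higher and 35.9% lower under *cco-1* RNAi, and 26.9% and 27.9% under *his-3* RNAi. Their summed level was 16680 to 17265 normalized counts under *cco-1* RNAi and 13109 to 14740 under *his-3* RNAi, against 11976 to 12177 in EV. Per length, the class was led in EV by *nlp-36*, *nlp-40* and *nlp-20*.

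*nlp-59*, *nlp-35*, *nlp-20* and *nlp-55* rose most under *cco-1* RNAi among those with a mean of at least 50 normalized counts. *nlp-59* had 143, 162 and 183 normalized counts under *cco-1* RNAi and 103, 116 and 122 under *his-3* RNAi, against 66.4, 68.5 and 68.1 in EV, and rose by 1.26 ± 0.13 (adjusted p = 1.5e-07) and 0.75 ± 0.13 (adjusted p = 0.00014). *nlp-20* had 931, 997 and 956 under *cco-1* RNAi and 644, 704 and 772 under *his-3* RNAi, against 486, 570 and 449 in EV, with log2 changes against EV of 0.94 and 0.50. In both genes all libraries under *cco-1* RNAi lay above those under *his-3* RNAi, which lay above EV. *nlp-55* rose by 0.92 and 0.43. *nlp-35* rose by 1.06 and 0.51, but shares exon sequence on the opposite strand with C33A12.19, which stood with log2 changes against EV of 4.66 and 4.16, and the strand setting of the counting is not given in the sources used here. The stretch that both genes cover runs from 9518367 to 9518434. The *his-3* RNAi call of *nlp-35* was lost without *his-3* RNAi replicate 2 (adjusted p = 0.057) or EV replicate 3 (adjusted p = 0.0759).

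Under *his-3* RNAi, *nlp-51*, *nlp-8*, *nlp-14* and *nlp-59* rose most among those with a mean of at least 50 normalized counts. *nlp-51* had 87, 98.8 and 85.1 normalized counts under *cco-1* RNAi and 118.99, 141 and 115 under *his-3* RNAi, against 57, 40.9 and 52.1 in EV. It stood above EV in every treated library, by 0.85 ± 0.16 (adjusted p = 0.00014) and 1.31 ± 0.15 (adjusted p = 9.8e-07) on the log2 scale. *nlp-8* and *nlp-14* are expressed in the ALA neuron and take part in sleep after cellular stress. *nlp-8* had 509.5, 498 and 543 normalized counts under *cco-1* RNAi and 552, 604 and 551 under *his-3* RNAi, against 305, 313 and 309.5 in EV, and rose by 0.74 ± 0.07 (adjusted p = 6.1e-08) and 0.88 ± 0.07 (adjusted p = 1.2e-08). *nlp-14* rose by 0.84 and 0.75. In both genes the treated libraries were clear of the EV libraries.

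*nlp-12*, a cholecystokinin-like precursor of the DVA neuron that acts in locomotion, had 301, 335 and 331 normalized counts under *cco-1* RNAi and 187, 221 and 255 under *his-3* RNAi, against 172, 199.9 and 160 in EV. The *cco-1* RNAi libraries lay above all others (0.87 ± 0.11, adjusted p = 3.0e-06), whereas the *his-3* RNAi libraries overlapped those of EV (0.32 ± 0.12, adjusted p = 0.0268). The *his-3* RNAi call was lost without *his-3* RNAi replicate 3 (0.21, adjusted p = 0.153), EV replicate 1 (adjusted p = 0.113) or EV replicate 3 (adjusted p = 0.126), and with DESeq2 (adjusted p = 0.0512). The treatments differed by 0.55 ± 0.11 (adjusted p = 0.00024).

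*nlp-40* (WBGene00022276, chromosome I, 11495 to 16837, plus strand) is released by the intestine and times the defecation motor program. It had 4153, 3755 and 4320 normalized counts under *cco-1* RNAi and 2269, 2668 and 2382 under *his-3* RNAi, against 2467, 2448 and 2497 in EV. It rose by 0.72 ± 0.06 (adjusted p = 1.3e-08) under *cco-1* RNAi, and stood at -0.02 ± 0.06 (adjusted p = 0.819) under *his-3* RNAi, where scaling to library size or to *act-1* and *pmp-3* gave 0.20 and 0.27 and passed the threshold. Of 7 intestine markers, 4 were higher and 3 lower under *cco-1* RNAi, beside 34.9% and 35.9% of all genes tested. Under *his-3* RNAi, 0 were higher and 7 lower, beside 26.9% and 27.9% of all genes tested. The markers summed to 158573 to 161699 normalized counts under *cco-1* RNAi and 52403 to 62710 under *his-3* RNAi, against 79660 to 88222 in EV. None of the markers was at 0, and their part in the *nlp-40* values was not tested.

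Few *nlp* genes of this class fell. *nlp-67* (WBGene00011227, chromosome X, 16184369 to 16185722, plus strand) had 74.7, 64.9 and 53.3 normalized counts under *cco-1* RNAi and 212, 279 and 228 under *his-3* RNAi, against 239, 192 and 231 in EV. Its fall under *cco-1* RNAi, by 1.77 ± 0.15 on the log2 scale (adjusted p = 1.6e-08), was the largest in the class, and under *his-3* RNAi it stood at 0.11 ± 0.12 (adjusted p = 0.435) with overlapping libraries. *nlp-4*, at -0.32 (adjusted p = 0.00678), and *nlp-69*, at -0.40 (adjusted p = 0.0439), were the others below EV under *cco-1* RNAi, with smaller changes; *nlp-4* did not pass by library size (adjusted p = 0.052) or scaled to *act-1* and *pmp-3* (adjusted p = 0.185). The call of *nlp-69* was lost in 11 of 19 alternatives, among them leaving out any *cco-1* RNAi replicate (adjusted p = 0.104, 0.0525 and 0.104), *his-3* RNAi replicate 3 (adjusted p = 0.0523) or EV replicate 2 (-0.28, adjusted p = 0.179), and its adjusted p ranged between 0.0299 and 0.241.

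*nlp-36* (WBGene00007185, chromosome III, 9488731 to 9489186, plus strand) was called on opposite sides of EV. It had 2024, 2029 and 1915 normalized counts under *cco-1* RNAi and 928, 997 and 1030 under *his-3* RNAi, against 1683, 1579.7 and 1618 in EV, and the 3 groups did not overlap. The log2 fold changes were 0.29 ± 0.05 (adjusted p = 4.5e-05) and -0.72 ± 0.05 (adjusted p = 3.2e-09), and the direct comparison gave 1.01 ± 0.05 (*cco-1* RNAi over *his-3* RNAi, adjusted p = 1.3e-11). The gene overlaps *dars-1*, an aspartyl-tRNA synthetase gene on the opposite strand with 69285 reads in all, which stood at 0.03 (adjusted p = 0.482) and -0.38 (adjusted p = 5.6e-07). The stretch that both genes cover runs only from 9489176 to 9489186.

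**Figure D3:**
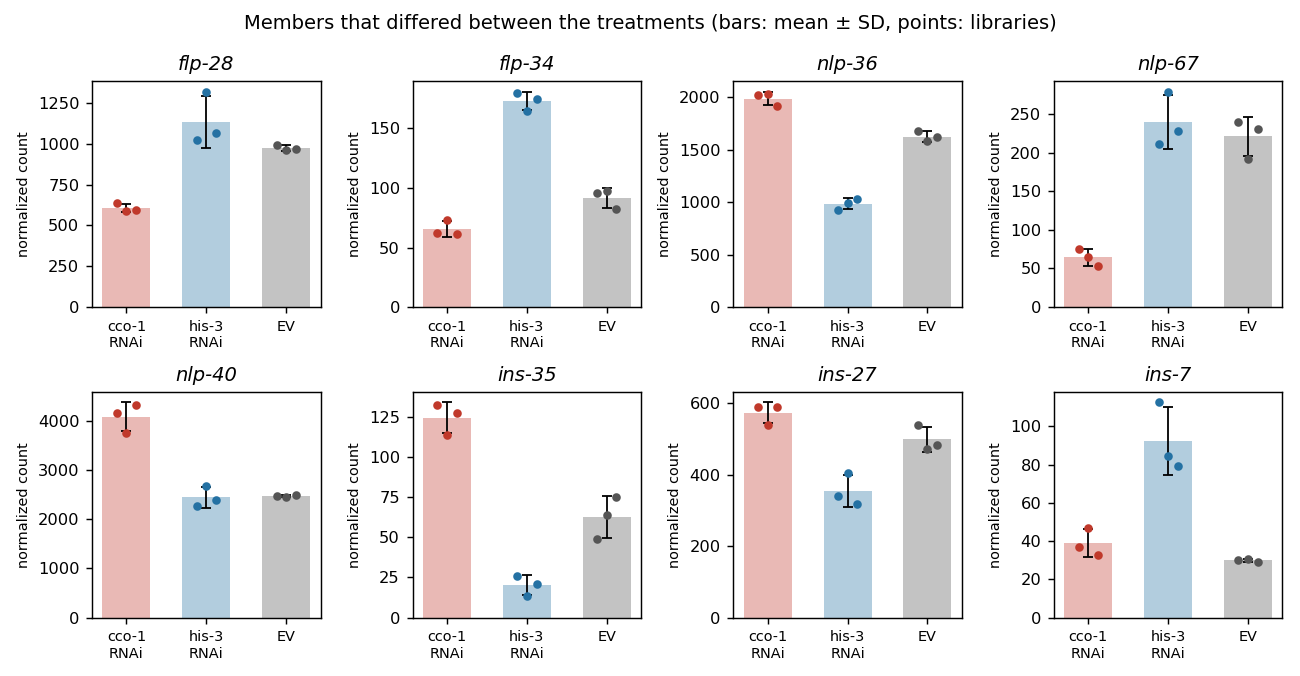
Normalized counts (y axes, from 0) of 8 members in the *cco-1* RNAi, *his-3* RNAi and EV libraries; points are libraries, bars are means and whiskers the SD (n = 3). *flp-34* and *ins-7* were highest under *his-3* RNAi, *nlp-36*, *nlp-40* and *ins-35* under *cco-1* RNAi, and *nlp-67* was lowest under *cco-1* RNAi at a mean of 64.3.

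The epidermal *nlp* genes moved in both directions. Under *cco-1* RNAi, 5 of 10 (50%) were higher than in EV and 4 (40%) were lower, beside 34.9% and 35.9% of all genes tested. Their log2 fold changes lay between -4.90 and 3.76. By at least 2 on the log2 scale, 2 of the 10 were higher and 3 lower, beside 4.31% and 6.61% of all genes tested. Under *his-3* RNAi, 2 (20%) were higher and 6 (60%) were lower, beside 26.9% and 27.9% of all genes tested. The *his-3* RNAi median was -0.38, and stood at -0.23 without *his-3* RNAi replicate 2 and -0.49 without *his-3* RNAi replicate 3. The *his-3* RNAi counts depended on the scaling, with 4 higher and 4 lower by library size (median -0.16). When scaled to *act-1* and *pmp-3*, 4 were higher and 2 lower (median -0.09). *nlp-33* and *nlp-24* held most of the reads of the class, whose summed level was 3763 to 4100 normalized counts under *cco-1* RNAi and 3306 to 4507 under *his-3* RNAi, against 5789 to 6651 in EV. Of the 11 genes, 10 lie on chromosome V.

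Among the genes that fell, *nlp-25* (WBGene00003763, chromosome V, 19606180 to 19608419, plus strand) fell most. It had 5.12, 0.998 and 5.68 normalized counts under *cco-1* RNAi and 97.4, 54.3 and 72.7 under *his-3* RNAi, against 109.9, 123 and 124 in EV. The 11 reads of the 3 *cco-1* RNAi libraries, set against 348 in EV, gave a ratio of 0.0323 (95% interval 0.0160 to 0.0586, counting error only), and the log2 fold change was -4.90 ± 0.33 (adjusted p = 1.0e-09). Under *his-3* RNAi the gene stood at -0.67 ± 0.18 (adjusted p = 0.0044), below EV in every library, a call that was lost when scaled to *act-1* and *pmp-3* (-0.37, adjusted p = 0.0766).

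*nlp-33*, an antimicrobial peptide gene, had the highest level per length of the class in EV, at 437 ± 39.4 RPKM (SD, n = 3), against 73.5 ± 9.17 under *cco-1* RNAi and 240.3 ± 44.8 under *his-3* RNAi. It had 634, 812 and 703 normalized counts under *cco-1* RNAi and 2832, 1991 and 2206 under *his-3* RNAi, against 3922, 4678 and 4184 in EV. The 3 groups were fully apart, with log2 changes against EV of -2.57 ± 0.11 (adjusted p = 3.2e-12) and -0.86 ± 0.10 (adjusted p = 2.1e-06).

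*nlp-34*, an antimicrobial peptide gene of the same tandem block as *nlp-29*, had 13.3, 14 and 13.6 normalized counts under *cco-1* RNAi and 78.7, 81.9 and 67 under *his-3* RNAi, against 158, 123 and 128 in EV. It fell by 3.31 ± 0.19 (adjusted p = 9.8e-11) and 0.84 ± 0.13 (adjusted p = 4.0e-05) on the log2 scale, with no overlap between groups. *nlp-30* had 124, 124 and 145 under *cco-1* RNAi and 349, 276 and 353 under *his-3* RNAi, against 429, 508 and 454 in EV, and stood at -1.83 ± 0.11 (adjusted p = 2.5e-10) and -0.51 ± 0.10 (adjusted p = 0.00028). Its *his-3* RNAi call was lost when scaled to *act-1* and *pmp-3* (-0.21, adjusted p = 0.0836).

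Of the genes above EV, *nlp-26* (WBGene00003764, chromosome V, 19613461 to 19614534, plus strand) rose most. It had 349.9, 513 and 432 normalized counts under *cco-1* RNAi and 76.8, 70.8 and 84 under *his-3* RNAi, against 27, 32 and 36 in EV, and the log2 fold changes were 3.76 ± 0.17 (adjusted p = 3.3e-12) and 1.28 ± 0.22 (adjusted p = 0.00012). It starts 5041 bases beyond the end of *nlp-25*, with 1 protein-coding gene between them, so that the members furthest above and furthest below EV under *cco-1* RNAi were near neighbours. *nlp-26* shares exon sequence on the opposite strand with Y43F8C.3, within 19614506 to 19614534. Y43F8C.3 stood at -0.12 (adjusted p = 0.186) under *cco-1* RNAi and 0.45 (adjusted p = 0.00011) under *his-3* RNAi.

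*nlp-28* and *nlp-27* of the tandem block rose as well. *nlp-28* had 47.1, 53.9 and 65.8 normalized counts under *cco-1* RNAi and 24.4, 23 and 32.1 under *his-3* RNAi, against 5.18, 4.42 and 7.57 in EV, with log2 changes against EV of 3.23 ± 0.28 (adjusted p = 3.0e-08) and 2.16 ± 0.33 (adjusted p = 3.1e-05). All its treated libraries lay above EV. *nlp-27* had 132, 172 and 132 under *cco-1* RNAi and 50.6, 38.6 and 50 under *his-3* RNAi, against 36.3, 42 and 33.1 in EV, and rose by 1.97 ± 0.16 (adjusted p = 1.4e-08) under *cco-1* RNAi. Under *his-3* RNAi its libraries overlapped those of EV (0.33 ± 0.20, adjusted p = 0.179).

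*nlp-24* and *nlp-29* were above EV under *cco-1* RNAi and below it under *his-3* RNAi. *nlp-24*, which encodes opioid-like peptides, had 2247, 2181 and 2276 normalized counts under *cco-1* RNAi and 799, 650.3 and 869 under *his-3* RNAi, against 931, 969.9 and 1009 in EV, with log2 changes against EV of 1.20 ± 0.07 (adjusted p = 2.0e-10) and -0.33 ± 0.08 (adjusted p = 0.00181). The *his-3* RNAi call was lost by library size (-0.11, adjusted p = 0.258) and when scaled to *act-1* and *pmp-3* (-0.03, adjusted p = 0.742). *nlp-24* overlaps *glb-15* on the opposite strand, which had 425 reads in all and stood at 1.53 and 1.13. The stretch that both cover runs only from 11616805 to 11616828.

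*nlp-29*, the best known of the antimicrobial genes induced by fungal infection, changed little. It had 98.2, 86.9 and 91.9 normalized counts under *cco-1* RNAi and 54.3, 35.9 and 57.6 under *his-3* RNAi, against 63.2, 68.5 and 68.1 in EV, with log2 changes against EV of 0.47 ± 0.15 (adjusted p = 0.0123) and -0.44 ± 0.17 (adjusted p = 0.0386). The *his-3* RNAi call was lost without *his-3* RNAi replicate 2 (-0.25, adjusted p = 0.198), EV replicate 2 (adjusted p = 0.0891) or EV replicate 3 (adjusted p = 0.096), with DESeq2 (adjusted p = 0.0549), with only the groups compared in the fit (adjusted p = 0.0566), and by library size (adjusted p = 0.282) or scaled to *act-1* and *pmp-3* (adjusted p = 0.49). The direct comparison of the treatments gave 0.91 ± 0.16 (adjusted p = 9.2e-05). *nlp-31* passed in neither comparison, at 0.35 ± 0.20 (adjusted p = 0.126) and 0.32 ± 0.19 (adjusted p = 0.178); it passed under *his-3* RNAi without *his-3* RNAi replicate 2 (0.56, adjusted p = 0.00224), and under *cco-1* RNAi in 4 of 19 alternatives.

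*nlp-34*, *nlp-31*, *nlp-30*, *nlp-29*, *nlp-28* and *nlp-27* lie in this order on chromosome V between 3978825 and 3989770, with 920 to 3052 bases from each to the next and 0 other protein-coding genes starting between them. Along this stretch *nlp-34* and *nlp-30* fell under *cco-1* RNAi, whereas *nlp-29*, *nlp-28* and *nlp-27* rose. Genes of such a tandem block resemble each other in sequence, and reads that could not be assigned to 1 of them were left uncounted. *nlp-32*, on chromosome III, had too few reads to be tested.

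**Figure D4:**
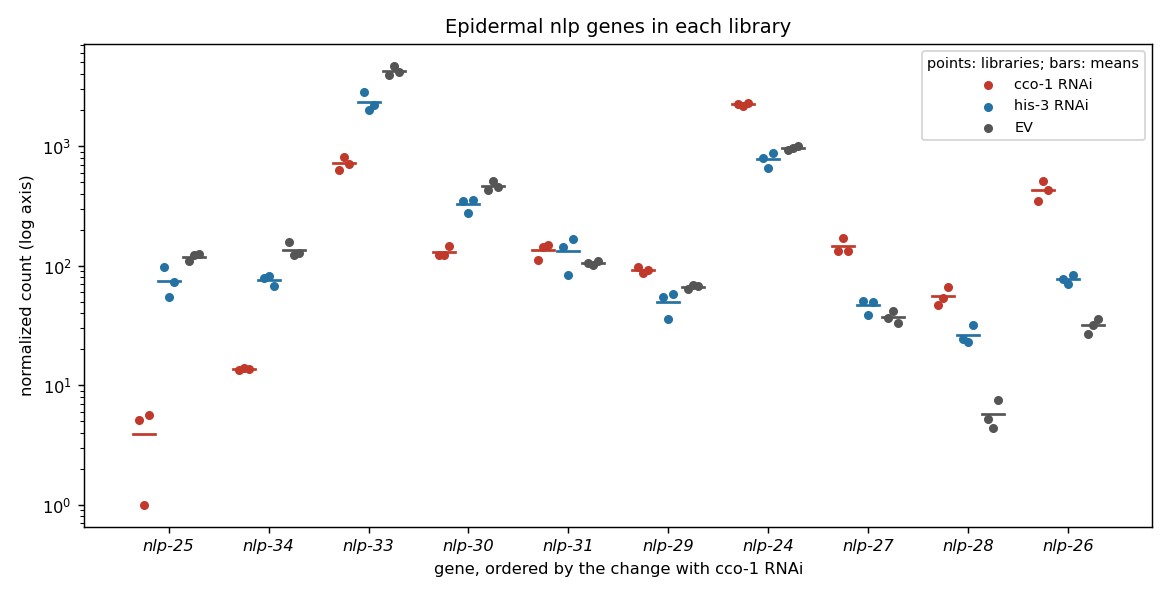
Normalized counts (log y axis) of the 10 tested epidermal *nlp* genes, ordered along the x axis by their change under *cco-1* RNAi, in the *cco-1* RNAi, *his-3* RNAi and EV libraries (points; bars are means, n = 3). *nlp-25* had 0.998 to 5.68 under *cco-1* RNAi against 109.9 to 124 in EV, and *nlp-26* had 349.9 to 513 against 27 to 36.

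Genes around the epidermal peptides were read from lists chosen for their known function. Of all genes tested, 34.9% were higher and 35.9% lower under *cco-1* RNAi, and 26.9% and 27.9% under *his-3* RNAi. These shares stand beside the counts of this list and those below. Of 15 genes known to act upstream of antimicrobial peptide genes in the epidermis, 10 were higher and 3 lower under *cco-1* RNAi (median 0.27) and 8 were higher and 2 lower under *his-3* RNAi (median 0.18). *sta-2*, the STAT-like factor, averaged 473 normalized counts under *cco-1* RNAi and 342 under *his-3* RNAi, against 143 in EV, and rose by 1.72 and 1.25. The adaptor gene *tir-1* rose by 0.88 and 0.82, the kinase gene *nipi-3* by 1.02 and 0.18, and *dcar-1*, a receptor gene that acts at the top of this pathway, fell by 0.69 under *cco-1* RNAi and stood at 0.02 (adjusted p = 0.815) under *his-3* RNAi. Of the caenacins, the other antimicrobial family of the epidermis, 6 of 11 were tested, with 3 higher and 2 lower under *cco-1* RNAi and 1 higher under *his-3* RNAi. *cnc-8* rose by 2.52 under *cco-1* RNAi and 0.80 under *his-3* RNAi.

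Markers of the epidermis, of other tissues and of developmental time moved alongside. Of 6 tested epidermal markers, 2 were higher and 3 lower under *cco-1* RNAi (median -0.30). Under *his-3* RNAi, 4 were higher and 0 lower (median 0.45). Their summed level was 7281 to 8432 normalized counts under *cco-1* RNAi and 8455 to 9947 under *his-3* RNAi, against 6712 to 6884 in EV. None was at 0. Of 15 genes that cycle with the molts or mark the late larval stage, 7 were higher and 8 lower under *cco-1* RNAi, and 6 were higher and 3 lower under *his-3* RNAi, with summed levels of 53124 to 59940, 77047 to 91175 and, in EV, 71801 to 74004. *col-19*, a collagen gene of the adult cuticle, averaged 29 normalized counts under *cco-1* RNAi and 2624 under *his-3* RNAi, against 4279 in EV. Of 29 tested sperm genes, 0 were higher and 28 lower under *cco-1* RNAi, and 11 were higher and 0 lower under *his-3* RNAi. In the same order, 8 germline markers gave 1 and 5, then 3 and 5. The 7 body wall muscle markers gave 0 and 5, then 0 and 7. The 6 pharynx markers gave 5 and 0, then 1 and 1. The part of these shifts in the values of the epidermal peptide genes and of the other classes was not tested.

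The insulin-like genes also moved in both directions. Under *cco-1* RNAi, 11 of 26 tested were higher and 3 lower (median log2 fold change 0.33), and under *his-3* RNAi 8 were higher and 4 lower (median 0.11, or 0.05 without EV replicate 2 and 0.06 without *his-3* RNAi replicate 2). The shares higher, 42.3% and 30.8%, lay near the 34.9% and 26.9% of all genes tested, and the shares lower were 11.5% and 15.4%, beside 35.9% and 27.9% of all genes. With fitting of only the groups compared, 1 was lower under *cco-1* RNAi, and with no filter on low counts 5 were. The summed level was 2406 to 2561 normalized counts under *cco-1* RNAi and 1934 to 2193 under *his-3* RNAi, against 1812 to 2028 in EV.

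Among the agonists of DAF-2, *ins-4* rose and *daf-28* and *ins-6* did not pass. *ins-4* had 95.2, 122 and 98.8 normalized counts under *cco-1* RNAi and 71.2, 97.5 and 72.7 under *his-3* RNAi, against 56, 42 and 54.9 in EV, with every treated library above EV (1.04 ± 0.17, adjusted p = 4.2e-05, and 0.65 ± 0.18, adjusted p = 0.00487). *daf-28*, whose peptide prevents dauer entry, had 159.6, 115 and 107.8 under *cco-1* RNAi and 75, 122 and 97.2 under *his-3* RNAi, against 129.6, 114 and 121 in EV. Its groups overlapped, at 0.07 ± 0.17 (adjusted p = 0.715) and -0.31 ± 0.17 (adjusted p = 0.143); the *his-3* RNAi value passed without *his-3* RNAi replicate 2 (-0.50, adjusted p = 0.0246). *ins-6*, which acts in dauer exit, stood at 0.13 (adjusted p = 0.481) and 0.11 (adjusted p = 0.554).

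*ins-7* (WBGene00002090, chromosome IV, 9682011 to 9682845, minus strand), an agonist known for feedback from the intestine, had 36.8, 46.9 and 32.9 normalized counts under *cco-1* RNAi and 112, 84.6 and 79.3 under *his-3* RNAi, against 30.1, 30.9 and 29.3 in EV. The *his-3* RNAi libraries lay above all others (1.61 ± 0.19, adjusted p = 1.6e-06), and under *cco-1* RNAi the value was 0.38 ± 0.22 (adjusted p = 0.141). The treatments differed by -1.23 ± 0.18 (*cco-1* RNAi over *his-3* RNAi, adjusted p = 1.0e-05).

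*ins-1* and *ins-18* encode peptides that act as antagonists of DAF-2. *ins-18* had 59.3, 61.9 and 77.2 normalized counts under *cco-1* RNAi and 57.2, 62.5 and 69.9 under *his-3* RNAi, against 39.4, 38.7 and 44.5 in EV, and rose by 0.68 ± 0.17 (adjusted p = 0.00163) and 0.62 ± 0.16 (adjusted p = 0.00424), with no overlap with EV. *ins-1* rose by 0.43 (adjusted p = 0.0296) and 0.55 (adjusted p = 0.00844). Its *cco-1* RNAi call was lost without *cco-1* RNAi replicate 1 (0.29, adjusted p = 0.164), *cco-1* RNAi replicate 3 (adjusted p = 0.0575), EV replicate 2 (adjusted p = 0.107) or EV replicate 3 (adjusted p = 0.0532), and with DESeq2 (adjusted p = 0.0556). *ins-17* rose by 0.55 and 0.67.

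The largest rise under *cco-1* RNAi among insulin-like genes with a mean of at least 50 normalized counts was that of *ins-33* (WBGene00002116, chromosome I, 13637845 to 13639311, minus strand). It had 283, 350.4 and 314 normalized counts under *cco-1* RNAi and 126, 116 and 135 under *his-3* RNAi, against 126, 144 and 118 in EV, with log2 changes against EV of 1.29 ± 0.11 (adjusted p = 1.1e-08) and -0.04 ± 0.12 (adjusted p = 0.813). Only the *cco-1* RNAi libraries stood apart. *ins-35* (WBGene00002118, chromosome V, 20375536 to 20376302, plus strand) had 132, 114 and 127 under *cco-1* RNAi and 26.2, 13.8 and 20.8 under *his-3* RNAi, against 48.7, 64.1 and 74.8 in EV. It rose by 0.98 ± 0.16 (adjusted p = 5.0e-05) under *cco-1* RNAi and fell by 1.63 ± 0.23 (adjusted p = 1.4e-05) on the log2 scale under *his-3* RNAi, and the direct comparison gave 2.61 ± 0.20 (adjusted p = 5.1e-09).

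*ins-27*, the insulin-like gene with the highest level per length in EV (56.7 ± 4.09 RPKM, SD, n = 3), had 589, 539 and 589 normalized counts under *cco-1* RNAi and 341, 404 and 318 under *his-3* RNAi, against 539, 472 and 484 in EV. It fell by 0.49 ± 0.09 (adjusted p = 0.00015) under *his-3* RNAi, whereas its libraries under *cco-1* RNAi reached into those of EV (0.20 ± 0.08, adjusted p = 0.0423). The *cco-1* RNAi call was lost without *cco-1* RNAi replicate 1 (adjusted p = 0.11), *cco-1* RNAi replicate 3 (adjusted p = 0.113), EV replicate 2 (0.16, adjusted p = 0.138) or EV replicate 3 (adjusted p = 0.124).

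Several scarce insulin-like genes, named here after their values were seen, moved furthest. *ins-12* had 3.07, 2.995 and 0 normalized counts under *cco-1* RNAi and 11.2, 8.28 and 13.2 under *his-3* RNAi, against 40.4, 34.2 and 39.8 in EV; the 6 reads under *cco-1* RNAi against 112 in EV gave a ratio of 0.0548 (95% interval 0.0197 to 0.123, counting error only). *ins-32* had 2 reads in all under *cco-1* RNAi against 42 in EV, a ratio of 0.0487 (95% interval 0.00571 to 0.187). Both were lower under *his-3* RNAi as well, with log2 changes against EV of -1.80 (adjusted p = 3.6e-05) and -1.34 (adjusted p = 0.0109). *ins-9* fell by 2.08 under *cco-1* RNAi and stood at -0.34 (adjusted p = 0.206) under *his-3* RNAi. *ins-5* had 88, 118.8 and 86.3 normalized counts under *cco-1* RNAi and 26.2, 35 and 17 under *his-3* RNAi, against 27, 11 and 27.4 in EV, and rose by 2.14 ± 0.26 (adjusted p = 1.5e-06) under *cco-1* RNAi. *ins-11*, whose peptide is known from the avoidance of pathogens, had 22.5, 27 and 11.4 normalized counts under *cco-1* RNAi and 26.2, 23 and 39.7 under *his-3* RNAi, against 11.4, 4.42 and 8.52 in EV. It rose by 1.32 ± 0.41 (adjusted p = 0.00926) and 1.84 ± 0.37 (adjusted p = 0.00054), although 1 *cco-1* RNAi library reached down to the highest EV library, and its *cco-1* RNAi call was lost without *cco-1* RNAi replicate 2 (1.06, adjusted p = 0.0526).

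**Figure D5:**
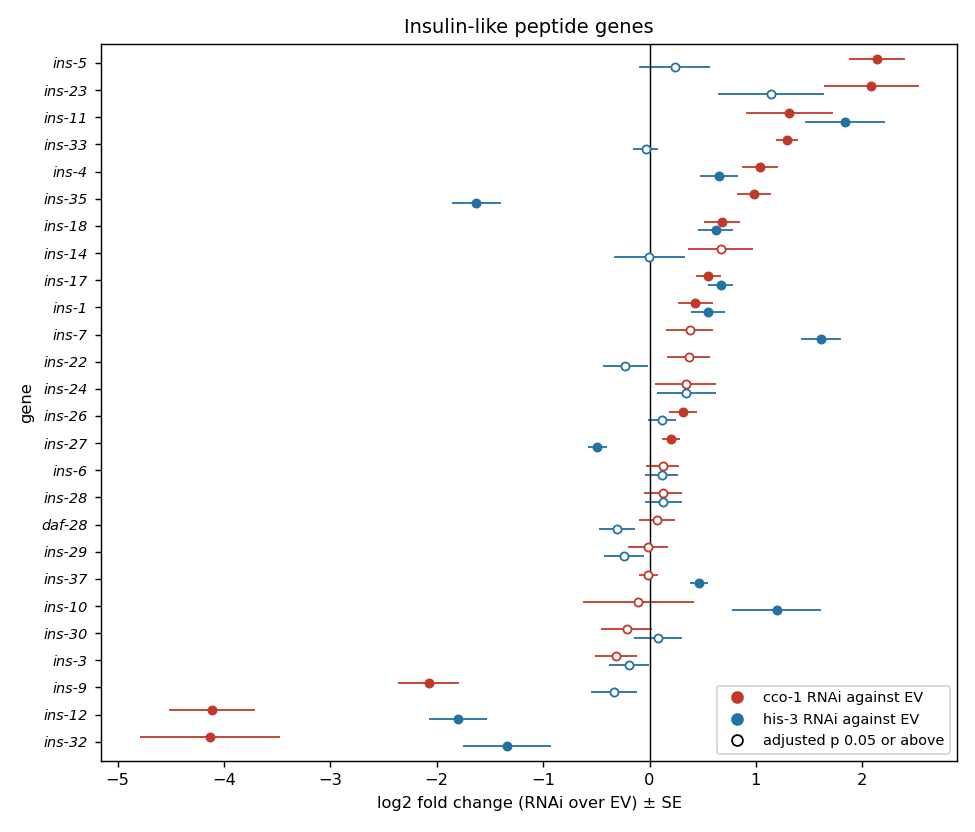
Log2 fold change over EV (x axis, points, with bars for the SE) of the 26 tested insulin-like genes (y axis) under *cco-1* RNAi and *his-3* RNAi; open points did not pass an adjusted p of 0.05. *ins-12* and *ins-32* lie far left under both treatments, *ins-35* lies at 0.98 under *cco-1* RNAi and -1.63 under *his-3* RNAi, and *ins-7* at 0.38 and 1.61.

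The receptor DAF-2 and the kinases below it are read from a list of 11 genes, of which 7 were higher and 3 lower under *cco-1* RNAi (median 0.20) and 5 were higher and 2 lower under *his-3* RNAi (median -0.02). *daf-2* itself averaged 3616 normalized counts under *cco-1* RNAi and 2602 under *his-3* RNAi, against 1641 in EV, log2 fold changes of 1.14 ± 0.08 and 0.67 ± 0.08. *daf-16*, the FOXO factor that the pathway restrains, rose by 0.36 under *cco-1* RNAi and stood at -0.02 (adjusted p = 0.756) under *his-3* RNAi, and *akt-1* fell by 0.45 under *cco-1* RNAi.

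The enzymes that mature peptide precursors were mostly above EV. Of 11 processing genes, 8 were higher and 2 lower under *cco-1* RNAi (median 0.53), and 7 were higher and 2 lower under *his-3* RNAi (median 0.32). *egl-3*, the proprotein convertase of neurons, averaged 3682 normalized counts under *cco-1* RNAi and 3674 under *his-3* RNAi, against 2418 in EV, and rose by 0.61 and 0.60. *sbt-1*, its chaperone, rose by 0.53 and 0.48, the carboxypeptidase gene *egl-21* by 0.36 and 0.21, and the amidating enzyme genes *pghm-1* and *pamn-1* by 0.66 and 0.47 under *cco-1* RNAi and by 0.53 and 0.43 under *his-3* RNAi. *kpc-1* and *bli-4*, convertases with roles in dendrites and in the cuticle, fell by 0.29 and 0.14 under *cco-1* RNAi. The largest rises of the list under *cco-1* RNAi were those of *cpd-1* (1.23) and *aex-5* (1.08). Under *his-3* RNAi *cpd-1* rose by 0.51, whereas *aex-5* fell by 0.35 and *kpc-1* by 0.13. Of 10 genes for dense core vesicles, 4 (40%) were higher and 2 (20%) lower under *cco-1* RNAi (median 0.08). Under *his-3* RNAi, 2 (20%) were higher and 2 (20%) lower (median 0.00). Of all genes tested, 34.9% were higher and 35.9% lower under *cco-1* RNAi, and 26.9% and 27.9% under *his-3* RNAi. *ida-1*, a vesicle membrane protein, was up by 0.31 and 0.45, and *unc-31*, needed for vesicle release, was down under *cco-1* RNAi (-0.48).

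Of 97 tested receptor genes named for peptide ligands, 20 (20.6%) were higher and 21 (21.6%) lower under *cco-1* RNAi (median 0.03). Under *his-3* RNAi, 22 (22.7%) were higher and 6 (6.19%) lower (median 0.17). These shares lay below those of all genes tested, which were 34.9% and 35.9% under *cco-1* RNAi and 26.9% and 27.9% under *his-3* RNAi. *npr-17*, a receptor of the opioid-like peptides of *nlp-24*, averaged 22.3 normalized counts under *cco-1* RNAi and 64.4 under *his-3* RNAi, against 71.5 in EV, and fell by 1.67 on the log2 scale under *cco-1* RNAi. *ckr-2*, a receptor of *nlp-12* peptides, rose by 0.64 and 0.48. Of 23 neprilysins, peptidases that break peptides down, 5 were higher and 16 lower under *cco-1* RNAi (median -0.62), led by *nep-4*, which averaged 1.04 normalized counts under *cco-1* RNAi against 135 in EV, and 4 were higher and 6 lower under *his-3* RNAi (median -0.04). Summed over the list, neprilysins had 54117 to 56856 normalized counts under *cco-1* RNAi and 34585 to 37290 under *his-3* RNAi, against 52958 to 55676 in EV. The sum was thus not lower than in EV under *cco-1* RNAi, and was lower under *his-3* RNAi.

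Markers of neurons were read beside the peptide genes. Of 24, 11 were higher and 1 lower under *cco-1* RNAi (median log2 fold change 0.20) and 8 were higher and 1 lower under *his-3* RNAi (median 0.12), and none was at 0 in any library. Their summed level was 27338 to 27617 normalized counts under *cco-1* RNAi and 20501 to 21887 under *his-3* RNAi, against 20011 to 20195 in EV. *unc-18* averaged 6154 normalized counts under *cco-1* RNAi against 2426 in EV, whereas *rab-3*, *snt-1* and *unc-33* stood at -0.01, 0.03 and 0.03 under *cco-1* RNAi and did not pass. The part of a shift in neuronal RNA in the values of the peptide genes was not tested.

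Set against each other without EV, the treatments differed in 54 of the 122 members. Under *cco-1* RNAi, 29 were higher and 25 lower than under *his-3* RNAi, where 31.8% and 36.8% of all genes were; by library size 20 were higher and 35 lower, and when scaled to *act-1* and *pmp-3* 19 were higher and 33 lower. Among *flp* genes 4 were higher and 6 lower, among the other *nlp* genes 13 and 9, among the epidermal *nlp* genes 5 and 4, and among insulin-like genes 7 and 6. The class medians of this comparison were -0.03, 0.06, 0.47 and 0.00. *nlp-25* at -4.24 and *ins-35* at 2.61 marked its ends among the members with a mean of at least 50 normalized counts.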

How the data were processed

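Polyadenylated RNA of whole L4 larvae was sequenced from stranded libraries, 3 per group. According to the labels and methods, the authors aligned the reads to WBcel235 with STAR 2.5.3a and counted the reads on each gene with HTSeq-count, which left reads with more than 1 alignment or gene unassigned, and the deposited table holds raw counts, whole numbers that were neither normalized nor filtered. Whether the counting used strand is not given in the sources used here. The summary lines of the table, 7.47 to 8.34% of the reads of a library, were left out.

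Genes were named from the gene name table, and positions and exon lengths came from the WBcel235 annotation. Genes were kept where over 3 libraries had more than 5 reads, and these 16817 were tested with edgeR 4.0.16 in R 4.3.3 (TMM, a mean per group, quasi-likelihood F test, Benjamini-Hochberg over all genes tested, prior count 0.125), in place of the limma test that the methods name, which was kept as an alternative. The biological coefficient of variation was 4.92%, and an SE is the log2 fold change, without its sign, over the square root of its F value. The intervals of ratios of few reads are exact and cover counting error only. Members, gene lists and tests were chosen with earlier results of these data known, and lists are described by counts and medians, with no test over a list. Named genes are all epidermal *nlp* genes and, in each other class, the 4 highest and 4 lowest calls against EV with a mean of at least 50 normalized counts, the 3 highest levels per length in EV, up to 3 members called in opposite directions, and genes with known roles.

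Alternatives were limma-voom 3.58.1, DESeq2 1.42.0 and its size factors, library size, scaling to *act-1* and *pmp-3*, other filters, a prior count of 2, a fold threshold, a block for the replicate number, a fit of only the groups compared, and each library left out in turn. No source used here says whether the RNA-seq replicates came from separate cultures. The p-values therefore measure the spread between these libraries, which may be technical. Of all libraries, *his-3* RNAi replicate 2 was least like its partners. Its chi-squared per degree of freedom, over tested genes without the scarcest, was 15.7 and 8.13 against replicates 1 and 3. All other pairs within a group had 3.44 to 5.72. The edgeR script was tested on simulated data.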

Additional observations from a re-analysis of the deposited data

How the results depend on the processing

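The median log2 fold change of all genes tested was 0.01 under *cco-1* RNAi and 0.02 under *his-3* RNAi with TMM, 0.10 and 0.24 by library size, and 0.17 and 0.31 when *act-1* and *pmp-3* set the scale. Rescaling moves all genes of a comparison by nearly the same amount, so a class median less the all-gene median can hardly change. Its range between scalings, at most 0.00246, is therefore no test of the scaling. With TMM it was 0.41 and 0.40 for *flp* genes and 0.40 and -0.40 for epidermal *nlp* genes. Of all genes, 8373 were called higher and 2457 lower under *his-3* RNAi by library size, and 9450 and 1827 with the reference genes, against 4525 and 4688; under *cco-1* RNAi the reference genes gave 7529 and 4552, against 5872 and 6040; between the treatments, 4115 were higher and 7629 lower by library size and 3945 and 7433 with the reference genes, against 5354 and 6190. By library size, 1 *nlp* gene outside the epidermal set was lower under *cco-1* RNAi, 4 epidermal *nlp* genes were higher under *his-3* RNAi, and *nlp-40* under *his-3* RNAi stood at 0.20 (adjusted p = 0.00527) in place of -0.02. With the reference genes, *nlp-40* stood at 0.27 (adjusted p = 0.00024), 1 *flp* gene and 1 other *nlp* gene were lower under *cco-1* RNAi, and under *his-3* RNAi 7 members were lower, 43 other *nlp* genes higher, and 4 epidermal *nlp* genes higher and 2 lower; 19 members were higher under *cco-1* RNAi than under *his-3* RNAi. With no filter on low counts 5 insulin-like genes were lower under *cco-1* RNAi, and with only the groups compared 4 *flp* genes and 1 insulin-like gene were; the cause was not tested. A fold threshold of 1 on the log2 scale leaves fewer calls by construction: 12 members higher under *cco-1* RNAi (0 *flp*, 3 other *nlp* and 5 insulin-like genes), with 0 *flp* genes and 1 other *nlp* gene lower; 7 higher under *his-3* RNAi (0 *flp*, 2 other *nlp* and 3 insulin-like genes) and 3 lower, with 0 epidermal and 0 other *nlp* genes among them; and 8 higher and 11 lower between the treatments. Leaving out each library gave 2 to 4 *flp* genes lower under *cco-1* RNAi, with 4 without *his-3* RNAi replicate 2, and 1 to 2 other *nlp* genes lower under *his-3* RNAi, with 2 without *his-3* RNAi replicate 2, *his-3* RNAi replicate 3 or EV replicate 2.

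Libraries with the same replicate number did not deviate together (correlations of -0.0396 to 0.0429 over 9 pairs). Whether libraries of equal number were handled together cannot be told from this. With the number as a block, 71 members were higher and 12 lower under *cco-1* RNAi and 63 and 11 under *his-3* RNAi. No count moved by over 1.5 times, and of the named genes only the *ins-27* call under *cco-1* RNAi was lost (0.20, adjusted p = 0.0544). Of the named genes called against EV, 36 of 43 under *cco-1* RNAi and 31 of 39 under *his-3* RNAi held their call under all alternatives other than the fold threshold. Depth limits the genes with few reads: *nlp-25*, *ins-12* and *ins-32* had 11, 6 and 2 reads under *cco-1* RNAi, and the 19 untested members cannot be compared.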
